A study of Mus musculus with 2 samples.

Results

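The genes described here are 10 of the zinc-dependent histone deacetylases, matched by symbol to the gene list of a single-cell RNA sequencing experiment on the mouse dentate gyrus. They make up 10 of the 32285 genes counted. Hdac1, Hdac2, Hdac3 and Hdac8 are class I, Hdac4, Hdac5, Hdac7 and Hdac9 are class IIa, Hdac6 is class IIb, and Hdac11 is class IV. The experiment used mice at post natal day 30. All carried the Nestin-Cre transgene B6.Cg-Tg(Nes-cre)1Kln/J. Control mice were Phf2+/+ and conditional knockout (cKO) mice were Phf2flox/flox, so the Cre is present in both groups, and the loss of Phf2 is limited to cells in which the nestin-driven Cre has acted and to their descendants. The protocol names 4 mice of each genotype, against 1 sample per genotype. The deposited matrix held the cells of both samples together and told them apart by a barcode suffix that no label tied to a genotype. The values are therefore given for library 1 and library 2, with no statement on which is the cKO and with no comparison of the genotypes.

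Histone deacetylases remove acetyl groups from lysines in histone tails and in many other proteins, and their action on histones generally accompanies tighter chromatin and lower transcription. The class I enzymes are mainly nuclear and do most of their work as the catalytic subunits of corepressor complexes, Hdac1 and Hdac2 in the NuRD, Sin3 and CoREST complexes and Hdac3 in the NCoR and SMRT complex. The class IIa proteins have little catalytic activity of their own, bind MEF2 transcription factors, and leave the nucleus for 14-3-3 proteins once kinases such as the salt-inducible kinases or protein kinase D have phosphorylated them. In the dentate gyrus, radial glia-like stem cells go on giving rise to new granule neurons in postnatal life, and Hdac1 and Hdac2 are known to be needed for neural progenitors to become neurons.

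The 2 libraries held 102897659 and 107266420 UMIs (unique molecular identifiers, each 1 captured 3' end of an RNA molecule), and 8029 and 8129 cells were kept, with medians of 8092 and 7232 UMIs per cell. The cells shared 22 barcode sequences between libraries. Clusters were built without the 111 genes of the lists used in this report and were named from marker genes, which gave 18 cell classes. Each name stands for cells resembling that type (microglia-like, and so on) and is written without the suffix from here on. The classes were radial glia-like stem cells (RGL), astrocytes, cycling progenitors, neurogenic intermediate progenitors (nIPC), neuroblasts, granule neurons, Cajal-Retzius cells, oligodendrocyte precursors (OPC), committed oligodendrocyte precursors (COP), oligodendrocytes, microglia, border macrophages, endothelial cells, pericytes, smooth muscle, fibroblasts, choroid plexus epithelium and erythroid cells. No marker of a class's own list was at 0 in that class. The nIPC cluster carried as many neuroblast as nIPC markers among its 10 leading genes, with Tac2, Eomes and Mfap4 in front. Its best single score was that of neuroblasts, whose markers summed to 11870 and 12162 CPM in it against 1897 and 1817 CPM for the nIPC markers. It was named nIPC because, among the related classes near its best score, the nIPC score stood highest relative to the other clusters. A cluster of 31 cells with astrocytes as its best score was named RGL by the same rule, beside 574 and 807 cells of the whole RGL class. Phf2 itself was counted in both libraries, at 16.4 and 13.6 CPM in RGL and at 23.6 and 11.7 CPM in nIPC, and these values were not used to assign a genotype.

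Levels are given as CPM, the UMIs of a gene scaled to a total of 1000000 UMIs for its class in 1 library. Their exact 95% Poisson intervals cover counting error only. Classes are said to overlap where their values in the 2 libraries do, without regard to these intervals. One UMI stands for 1 captured RNA end, so CPM was not divided by transcript length, although capture can still differ between genes. Levels are also set beside those of droplets without cells, which hold free RNA. The share of free RNA among the UMIs of each class was not measured. These droplets had 35.1 and 32.1 CPM of Hdac1, 18.7 and 21.3 CPM of Hdac3, 17.5 and 11.2 CPM of Hdac8, 18.7 and 17.3 CPM of Hdac4 and 32.2 and 26.4 CPM of Hdac5. They had 10.1 and 10.2 CPM of Hdac9, 8.54 and 10.8 CPM of Hdac6 and 21.0 and 17.9 CPM of Hdac11. Droplet levels are no floor for the classes, since endothelial cells had 0.977 and 1.06 CPM of Hdac11. All 10 members passed the filter on low counts and entered the fit across classes. That fit (edgeR's quasi-likelihood test with Benjamini-Hochberg adjustment over 15708 genes) covered 17 classes in both libraries and left out the erythroid class, where haemoglobin takes most counts. Its p-values set a difference between classes against a spread pooled over all 34 class and library columns, not against a spread between mice. With 1 library per genotype, that spread can also hold genotype differences that vary by class.

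Hdac1, a catalytic subunit shared by NuRD, Sin3 and CoREST, was counted in every class. It lay in ENSMUSG00000028800 at chr4:129516104-129542713 on the minus strand (mm10). Its highest level was in cycling progenitors, at 101 CPM in library 1 and 102 CPM in library 2, followed by fibroblasts at 116 and 77.4 CPM and pericytes at 77.3 and 88.7 CPM. The values of these 3 classes overlapped between libraries from one class to the next. The lowest levels outside the erythroid class were those of astrocytes, at 35.5 and 33.4 CPM, and of choroid plexus, at 37.7 and 32.2 CPM. Those 2 classes, neuroblasts (34.9 and 37.0 CPM) and erythroid cells (22.3 and 29.4 CPM) were close to or below the Hdac1 level of droplets without cells. How much of these values is free RNA was not tested. Hdac1 ranged 3.94-fold over the 18 classes, and its highest class stood 1.99-fold over its median class.

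Hdac2, the close relative of Hdac1 in the same complexes, had the highest level of any member and followed the neurogenic lineage. It reached 241 CPM (95% interval 227 to 257) and 246 CPM (228 to 265) in nIPC, 226 and 199 CPM in cycling progenitors, and 214 and 199 CPM in neuroblasts. COP came next, at 98.8 and 127 CPM, and overlapped with granule neurons at 102 and 118 CPM. The glial end of the order was far lower, with RGL at 39.0 and 32.4 CPM and astrocytes at 25.2 and 21.5 CPM. The highest class exceeded the lowest 10.4-fold, and the ranges of nIPC and cycling progenitors did not overlap. Droplets without cells held 54.4 and 46.4 CPM of Hdac2, more than the level in RGL or astrocytes. How much of the low values of those classes is free RNA was not tested. Hdac2 lies at chr10:36974544-37001889 on the plus strand (ENSMUSG00000019777). The promoter window of its RefSeq start, 250 bases before to 50 after the start (mm10 chr10:36974294-36974593, plus strand), is shown because Hdac2 and Hdac9 were the members with the largest rise from RGL to nIPC. Capitals mark any of 4 searched motifs on either strand, namely the GC box GGGCGG, the CCAAT box (those 5 letters), the E-box CAGNTG and the TATA string TATAAA. The single match here is a GC box.
Hdac2 promoter: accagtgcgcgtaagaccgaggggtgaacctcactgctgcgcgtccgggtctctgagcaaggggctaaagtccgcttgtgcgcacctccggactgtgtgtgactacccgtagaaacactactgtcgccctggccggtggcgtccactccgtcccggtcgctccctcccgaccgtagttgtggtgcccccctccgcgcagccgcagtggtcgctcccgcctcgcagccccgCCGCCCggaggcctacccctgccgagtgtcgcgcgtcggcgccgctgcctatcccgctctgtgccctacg
That window is 69.7% G and C and holds 36 CpG dinucleotides, against a median of 52.7% over 32851 mouse promoter windows of the same length in the RefSeq table, of which 35.7% hold a GC box.

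Hdac3, the catalytic subunit of the NCoR and SMRT complex (ENSMUSG00000024454), varied least of the class I members between its highest and its median class, by 1.77-fold. RGL stood highest, at 50.9 and 47.9 CPM. Choroid plexus had 60.3 and 32.7 CPM, but the first of these rests on 16 UMIs from 29 cells. Cycling progenitors, nIPC and neuroblasts followed at 48.1 and 39.5 CPM, 43.4 and 35.8 CPM, and 41.8 and 34.0 CPM, each overlapping with the next. Oligodendrocytes, border macrophages and smooth muscle were all under 18 CPM.

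Hdac8, a class I enzyme that also deacetylates the cohesin subunit Smc3, was a gene of astrocytes and stem cells (ENSMUSG00000067567, chrX:102284639-102505359, minus strand). Astrocytes had 64.0 and 79.0 CPM, RGL 53.0 and 52.9 CPM, and OPC 30.7 and 35.9 CPM (6 and 17 UMIs). The library values of these 3 classes did not overlap, but with so few UMIs in OPC its step from RGL is imprecise. The neurogenic classes and granule neurons lay between 13.1 and 21.1 CPM. Microglia had 7.46 and 6.25 CPM, and border macrophages had the lowest values, 2.71 and 3.12 CPM. Astrocytes and RGL, with the lowest levels of Hdac2 in the granule lineage and its related glia, thus had the highest of Hdac8, whose highest class stood 6.77-fold over its median class.

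Of the class IIa members, Hdac4 had the smallest ratio of its highest to its median class, 1.96-fold beside 2.07-fold for Hdac5 (ENSMUSG00000026313, chr1:91928779-92195699, minus strand). From highest to lowest class, Hdac4 ranged 4.77-fold and Hdac5 4.21-fold. Fibroblasts had 40.8 and 50.6 CPM, overlapping with RGL at 42.2 and 42.7 CPM, and nearly all other classes lay between 12 and 38 CPM. Hdac5 was highest in smooth muscle, at 75.9 and 58.3 CPM, and in oligodendrocytes, at 58.9 and 53.9 CPM, whose values overlapped. All other classes were under 41 CPM for Hdac5, and astrocytes were lowest on average, at 16.0 and 15.9 CPM. Hdac5 (ENSMUSG00000008855, chr11:102194432-102230166, minus strand) had both of its leading classes among the 3 highest of Hdac11. Its promoter window (mm10 chr11:102230123-102230422, minus strand) holds 18 CpG dinucleotides, 1 GC box, 2 CCAAT boxes and 1 E-box.
Hdac5 promoter: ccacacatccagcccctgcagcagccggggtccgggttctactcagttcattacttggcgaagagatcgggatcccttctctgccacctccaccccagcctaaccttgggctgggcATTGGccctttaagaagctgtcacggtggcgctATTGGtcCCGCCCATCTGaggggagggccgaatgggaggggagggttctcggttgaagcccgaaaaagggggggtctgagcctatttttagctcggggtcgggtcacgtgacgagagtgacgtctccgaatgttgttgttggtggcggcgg

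Hdac7, a class IIa member known for its part in keeping endothelial junctions, was led by endothelial cells at 97.9 and 109 CPM (ENSMUSG00000022475, chr15:97792664-97844502, minus strand). Pericytes followed at 38.7 and 45.3 CPM, OPC at 30.7 and 46.4 CPM and astrocytes at 34.9 and 39.1 CPM, and these 3 overlapped. The endothelial marker list summed to 424 and 408 CPM in pericytes, 60.1 and 43.5 CPM in astrocytes and 43.5 and 42.1 CPM in RGL. In endothelial cells it came to 23191 and 23021 CPM, and none of its 10 genes was at 0 in any of these classes. In OPC it came to 66.5 and 52.7 CPM, with 3 genes at 0. RGL had only 7.69 and 9.59 CPM of Hdac7, cycling progenitors 1.78 and 2.11 CPM, and microglia 1.16 and 2.17 CPM. The value in cycling progenitors rests on 6 and 7 UMIs, below the 23.8 and 24.0 CPM of Hdac7 in droplets without cells.

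Hdac9, a class IIa member, had its highest class 6.21-fold over its median class, beside 5.65-fold for Hdac7 (ENSMUSG00000004698, chr12:34047580-34917095, minus strand). Neuroblasts had 70.1 and 53.1 CPM, nIPC 57.7 and 56.4 CPM, and border macrophages 39.7 and 60.4 CPM, each overlapping with the next. Cycling progenitors stood below these at 22.6 and 16.3 CPM, and granule neurons had fallen to 11.2 and 9.39 CPM. RGL had 8.75 and 4.59 CPM. In choroid plexus the count was 0 of 265458 UMIs in library 1, which allows up to 11.3 CPM, and 0.729 CPM in library 2. Within the neuroblast class, the shallow cluster (297 cells) had 15.9 and 14.7 CPM and the larger cluster (1025 cells) 73.4 and 57.2 CPM, so the class value comes almost wholly from the larger one. The RefSeq table gave 2 starts for Hdac9. Their windows (mm10 chr12:34917046-34917345 and chr12:34528840-34529139, both minus strand) are 44.0% and 45.3% G and C, with 0 and 3 CpG dinucleotides, unlike the Hdac2 window shown above. Neither window holds the letters of the GC box.
Hdac9 promoter, upstream start: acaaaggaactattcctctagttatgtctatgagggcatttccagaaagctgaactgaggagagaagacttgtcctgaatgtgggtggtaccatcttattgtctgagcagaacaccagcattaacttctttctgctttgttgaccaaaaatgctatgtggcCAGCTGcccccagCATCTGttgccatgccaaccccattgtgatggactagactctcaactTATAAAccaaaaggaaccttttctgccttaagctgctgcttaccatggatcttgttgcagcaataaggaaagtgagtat
Hdac9 promoter, downstream start: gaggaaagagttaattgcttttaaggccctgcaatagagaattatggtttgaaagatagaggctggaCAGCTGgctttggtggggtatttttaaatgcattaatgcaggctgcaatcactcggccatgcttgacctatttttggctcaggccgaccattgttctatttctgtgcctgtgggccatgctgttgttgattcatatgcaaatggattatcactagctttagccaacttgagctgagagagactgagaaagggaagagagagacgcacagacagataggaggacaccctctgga
The upstream window has 2 E-box matches and 1 TATA string, and the downstream one 1 E-box match. Over all windows, 51.4% hold an E-box, 13.6% a TATA string and 37.4% a CCAAT box.

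Hdac6, the class IIb enzyme best known for deacetylating tubulin, was low everywhere (ENSMUSG00000031161, chrX:7930120-7947889, minus strand). The neural lineage was level, with neuroblasts at 21.1 and 20.3 CPM, cycling progenitors at 19.0 and 20.2 CPM, RGL at 21.5 and 16.2 CPM, nIPC at 19.1 and 18.6 CPM and granule neurons at 18.7 and 16.9 CPM. Oligodendrocytes had 5.46 and 5.31 CPM. Pericytes had no UMI among 620764 in library 1, which allows up to 4.83 CPM, and 3.94 CPM in library 2.

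Hdac11, the only class IV enzyme, which removes long fatty acyl groups as well as acetyl groups, was highest in 2 unrelated classes (ENSMUSG00000034245, chr6:91156665-91174692, plus strand). Cajal-Retzius cells had 108 CPM in each library and oligodendrocytes 83.4 and 88.6 CPM. Smooth muscle followed at 41.0 and 35.2 CPM and granule neurons at 27.1 and 22.5 CPM. In CPM each of these 4 classes stood clear of the next above it, but the order of the first 2 can depend on the scaling. The oligodendrocyte marker list summed to 107 and 146 CPM in Cajal-Retzius cells, with 1 of 10 markers at 0, against 103016 and 97012 CPM in oligodendrocytes. Endothelial cells, at 0.977 and 1.06 CPM, and cycling progenitors, at 1.78 and 0.904 CPM, were lowest. The promoter window of Hdac11 (mm10 chr6:91156565-91156864, plus strand) is 66.7% G and C, with 22 CpG dinucleotides and 1 match each of the GC box, CCAAT box and E-box. It is shown beside that of Hdac5 because both genes were high in oligodendrocytes and smooth muscle.
Hdac11 promoter: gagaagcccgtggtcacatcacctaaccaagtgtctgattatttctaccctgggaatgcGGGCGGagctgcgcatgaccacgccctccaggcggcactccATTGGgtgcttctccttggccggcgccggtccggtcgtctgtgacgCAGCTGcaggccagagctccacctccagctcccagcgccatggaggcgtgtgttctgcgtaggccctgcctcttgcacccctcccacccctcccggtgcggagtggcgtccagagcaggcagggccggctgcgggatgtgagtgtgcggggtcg
Of the 10 members, 8 had a window in the table, Hdac1 and Hdac3 being the others.

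**Figure D1:**
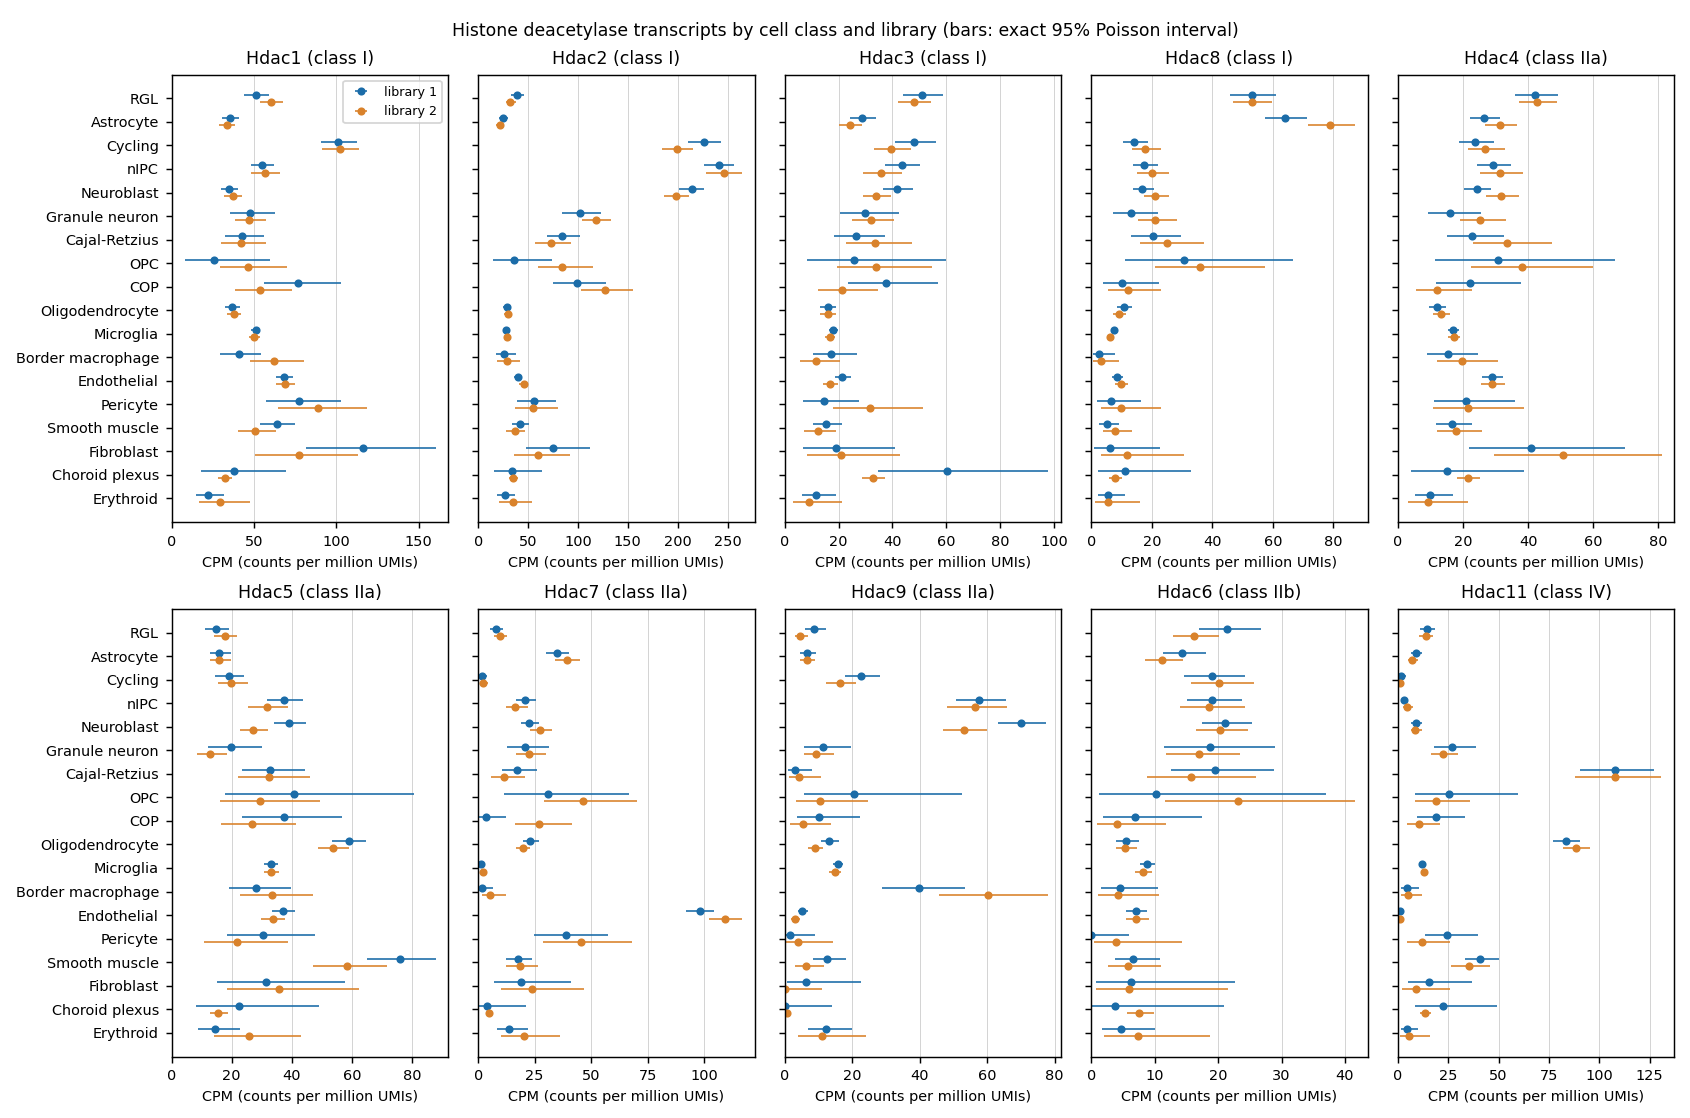
Level of each histone deacetylase in 18 cell classes. Each panel is 1 gene, the x axis is CPM from 0 on a scale of its own, points are library 1 and library 2, and bars are exact 95% Poisson intervals. Hdac2 peaks in nIPC at 241 and 246 CPM, Hdac7 in endothelial cells at 97.9 and 109 CPM, and Hdac11 in Cajal-Retzius cells at 108 CPM in each library.

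Set against the mean of the other fitted classes, each member was higher in some classes and lower in others. Of 170 such tests (10 members in 17 classes), 52 were higher and 43 lower, and 75 did not pass (edgeR, adjusted p below 0.05). The members' counts were close to the share of all genes in many classes. In endothelial cells 9 of 10 members passed beside 54.6% of all genes, and in cycling progenitors and oligodendrocytes 8 did, beside 51.3% and 52.1%. The count was 7 of 10 in RGL (48.5% of all genes), astrocytes (52.8%), neuroblasts (54.0%) and microglia (61.7%). Border macrophages (42.5%) and smooth muscle (39.7%) had 6, and nIPC (49.9%), granule neurons (52.0%) and choroid plexus (49.4%) had 5. Cajal-Retzius cells (38.9%) and pericytes (26.7%) had 4, COP (26.4%) had 3, and OPC (23.5%) and fibroblasts (20.3%) had 2. Among the higher calls were those of Hdac11 in oligodendrocytes, 3.37 ± 0.09 (SE) on the log2 scale, Hdac7 in endothelial cells, 3.14 ± 0.10, Hdac8 in astrocytes, 2.80 ± 0.10, and Hdac2 in nIPC, 1.88 ± 0.08. Border macrophages, a class of 148 and 142 cells, led for Hdac9 with 2.75 ± 0.24, beside 2.73 ± 0.14 in neuroblasts. Folds below the mean depend on classes with few UMIs and are not ranked.

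The class I genes took most of the class I and class IIa UMIs in most classes. Cycling progenitors had the highest share, with 85.3% (exact 95% binomial interval 83.5 to 87.1%) in library 1 and 84.6% (82.7 to 86.5%) in library 2. Granule neurons had 74.1 and 75.7%, RGL 72.5 and 72.1%, nIPC 71.1 and 72.5%, neuroblasts 66.3 and 67.6% and astrocytes 64.6 and 62.9%. Outside this lineage, COP (75.3 and 75.1%) and choroid plexus (77.6 and 71.6%) had shares near that of granule neurons. At the other end were endothelial cells, with 44.9% (43.1 to 46.6%) and 44.7% (42.8 to 46.6%), and oligodendrocytes, with 46.2 and 49.2%. Endothelial cells were the class whose intervals lay under 50% in both libraries. For oligodendrocytes this held in library 1, and in library 2 the interval ran from 46.7 to 51.8%. Smooth muscle, at 50.6 and 51.4%, and border macrophages, at 50.5 and 47.2%, were close to an even split. The median over the 18 classes was 64.8%, and RNA of droplets without cells gave 59.7 and 58.8%.

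The totals behind these shares also differed. Cycling progenitors had class I totals of 389.9 and 359 CPM beside 67.1 and 65.1 CPM of class IIa, in which Hdac4 was the largest part. In nIPC class I came to 357 and 358 CPM and class IIa to 145 and 136 CPM, with Hdac9 the largest part. Endothelial cells had the highest class IIa total, 169 and 175 CPM, led by Hdac7. Oligodendrocytes had a low class I total, 92.0 and 92.9 CPM, beside 107 and 95.9 CPM of class IIa, led by Hdac5. In border macrophages the leading class IIa member was Hdac9. The log2 ratio of class I to class IIa ran from -0.30 in endothelial cells to 2.50 in cycling progenitors, with a median of 0.88. Being a score over chosen genes, it was given no test.

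Within class I, the balance of Hdac2 to Hdac1 differed more than the class I share. Hdac2 made up 86.0 and 84.3% of the UMIs of Hdac1 and Hdac2 in neuroblasts, 81.5 and 81.3% in nIPC, 69.1 and 66.1% in cycling progenitors and 68.1 and 71.5% in granule neurons. In RGL it was 43.2 and 35.0%, in astrocytes 41.6 and 39.2%, in microglia 35.6 and 36.6% and in endothelial cells 36.7 and 39.7%. The 4 neurogenic and granule classes were thus above 66% and these other 4 below 44% in both libraries. High shares were not limited to the granule lineage. Cajal-Retzius cells had 66.3 and 63.6%, COP 56.3 and 70.4% and OPC, from few UMIs, 58.3 and 64.5%. The median over the 18 classes was 46.9%.

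**Figure D2:**
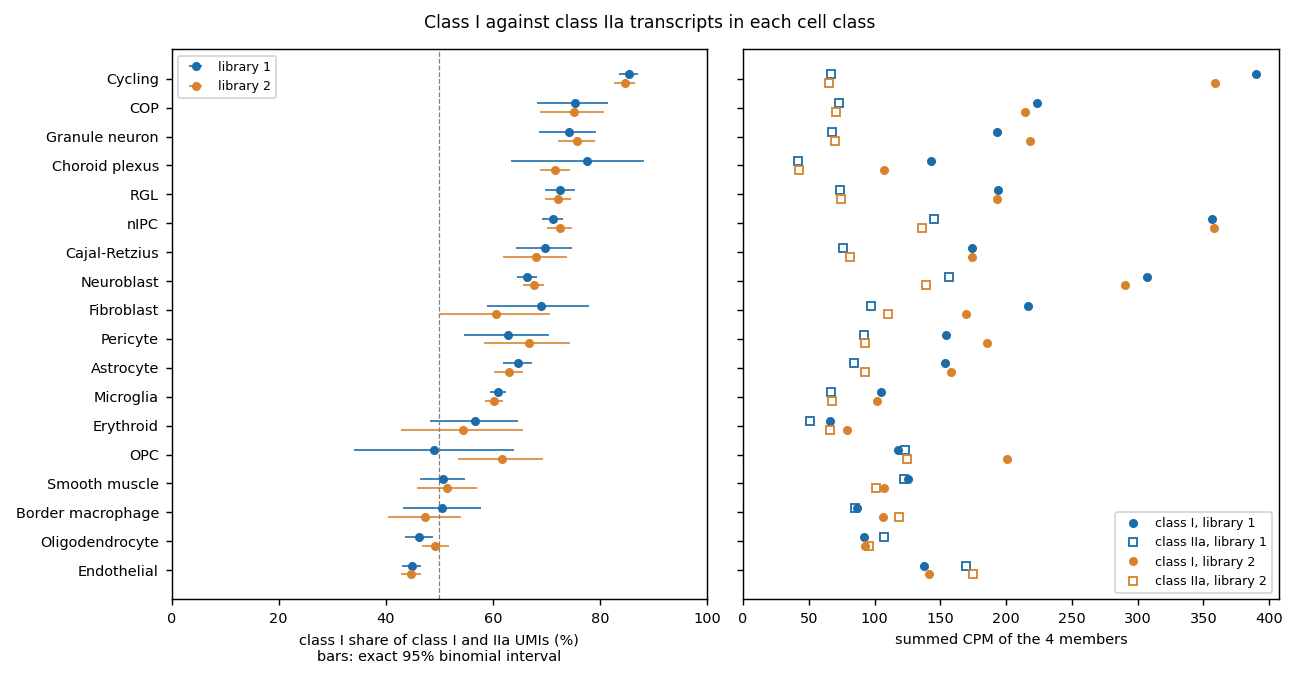
Class I against class IIa transcripts. The left panel gives the class I share of class I and class IIa UMIs in percent, with exact 95% binomial intervals and a dashed line at 50%, and the right panel the summed CPM of the 4 class I genes (filled circles) and the 4 class IIa genes (open squares) in each library. Cycling progenitors have the highest share, 85.3 and 84.6%, and endothelial cells the lowest, 44.9 and 44.7%.

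The step from stem cells to committed progenitors changed 8 of the 10 members. In nIPC against RGL, 4 members were higher and 4 lower, beside 24.9% and 27.6% of all genes. Hdac9 rose by 3.0 ± 0.23 (SE) on the log2 scale (edgeR adjusted p = 1.9e-13) and Hdac2 by 2.65 ± 0.13 (adjusted p = 5.2e-18). Hdac7 (1.00 ± 0.27) and Hdac5 (0.93 ± 0.18) rose less. Hdac11 fell by 2.12 (SE 0.28), Hdac8 by 1.63 (SE 0.16), Hdac4 by 0.61 (SE 0.15) and Hdac3 by 0.45 (SE 0.15). The fall of Hdac11 rests on 12 and 13 UMIs in nIPC, and its level in both classes was below that in droplets without cells. The rise of Hdac9 starts from 33 and 23 UMIs in RGL (8.75 and 4.59 CPM), also below its droplet level, so its size is imprecise. Hdac1 and Hdac6, at -0.14 ± 0.14 and -0.12 ± 0.18, did not pass. By class, 1 of 4 class I members rose and 2 fell, while 3 of 4 class IIa members rose and 1 fell. The median log2 change of class I was -0.30 and that of class IIa 0.96, against -0.05 over all genes tested. These medians weigh each gene alike, and the summed levels of both classes rose. Class I went from 194 and 193 CPM in RGL to 357 and 358 CPM in nIPC. Class IIa went from 73.4 and 74.7 CPM to 145 and 136 CPM. The class I share was 72.5 and 72.1% in RGL and 71.1 and 72.5% in nIPC. With total-count scaling the fall of Hdac3 no longer passed. Dissociation-response genes (immediate early and heat shock genes that tissue dissociation can induce) moved in the same comparison, 10 of 20 lower and 1 higher, and their part in these changes was not tested.

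Cycling progenitors were compared with the same RGL cells, so the values of the 2 comparisons are only set side by side. Here 3 members were higher and 4 lower, beside 25.5% and 27.2% of all genes. Hdac2 rose by 2.59 ± 0.14 (edgeR adjusted p = 1.3e-17), Hdac9 by 1.57 ± 0.28 and Hdac1 by 0.86 ± 0.13 (adjusted p = 9.8e-07). Hdac8 fell by 1.72 (SE 0.17), Hdac4 by 0.75 (SE 0.16) and Hdac7 by 2.14 (SE 0.46). Hdac11 was the lowest, at -3.35 ± 0.35, from 6 and 3 UMIs in cycling cells, so its size is imprecise. Hdac3, Hdac5 and Hdac6 did not pass, at -0.18 ± 0.15, 0.22 ± 0.20 and 0.07 ± 0.18. Of the 20 dissociation-response genes, 2 were higher and 2 lower.

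From nIPC to neuroblasts 2 members passed, Hdac1 and Hdac11, 1 in each direction, beside 8.01% of all genes higher and 6.51% lower. Hdac1 fell by 0.59 (SE 0.15, edgeR adjusted p = 0.0039) and Hdac11 rose by 1.37 ± 0.30 (adjusted p = 0.0011). The Hdac11 level in nIPC, 2.86 and 4.47 CPM, rests on 12 and 13 UMIs. That level and the 9.08 and 8.74 CPM in neuroblasts were below the 21.0 and 17.9 CPM in droplets without cells. Hdac2 and Hdac9, the genes of the preceding rise, were at -0.20 ± 0.11 and 0.15 ± 0.15 and did not pass. With only these 2 classes in the fit, 4 members passed, Hdac2 and Hdac7 being added. Of the dissociation-response genes, 5 of 20 were higher and 0 lower in neuroblasts, with a summed level of 3816 and 3142 CPM against 2112 and 1580 CPM in nIPC. Their part in these changes was not tested.

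From neuroblasts to granule neurons 1 member was higher and 3 lower, beside 22.8% and 25.7% of all genes. Hdac9 fell by 2.59 (SE 0.27, edgeR adjusted p = 3.3e-10), Hdac5 by 1.13 (SE 0.23) and Hdac2 by 0.91 (SE 0.13, adjusted p = 5.4e-07). Hdac11 rose by 1.42 ± 0.23 (adjusted p = 3.8e-06). The level of Hdac9 in granule neurons rests on 12 and 20 UMIs. Hdac1, at 0.38 ± 0.18, and the other 5 members did not pass. The genes lowered included 2 of the 4 class IIa members, whose median was -0.75, against -0.14 over all genes. Of the dissociation-response genes, 10 of 20 were lower in granule neurons, with a part in these changes that was not tested. Granule neurons were few, 49 and 106 cells, and deep, with medians of 20867 and 19498 UMIs per cell.

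**Figure D3:**
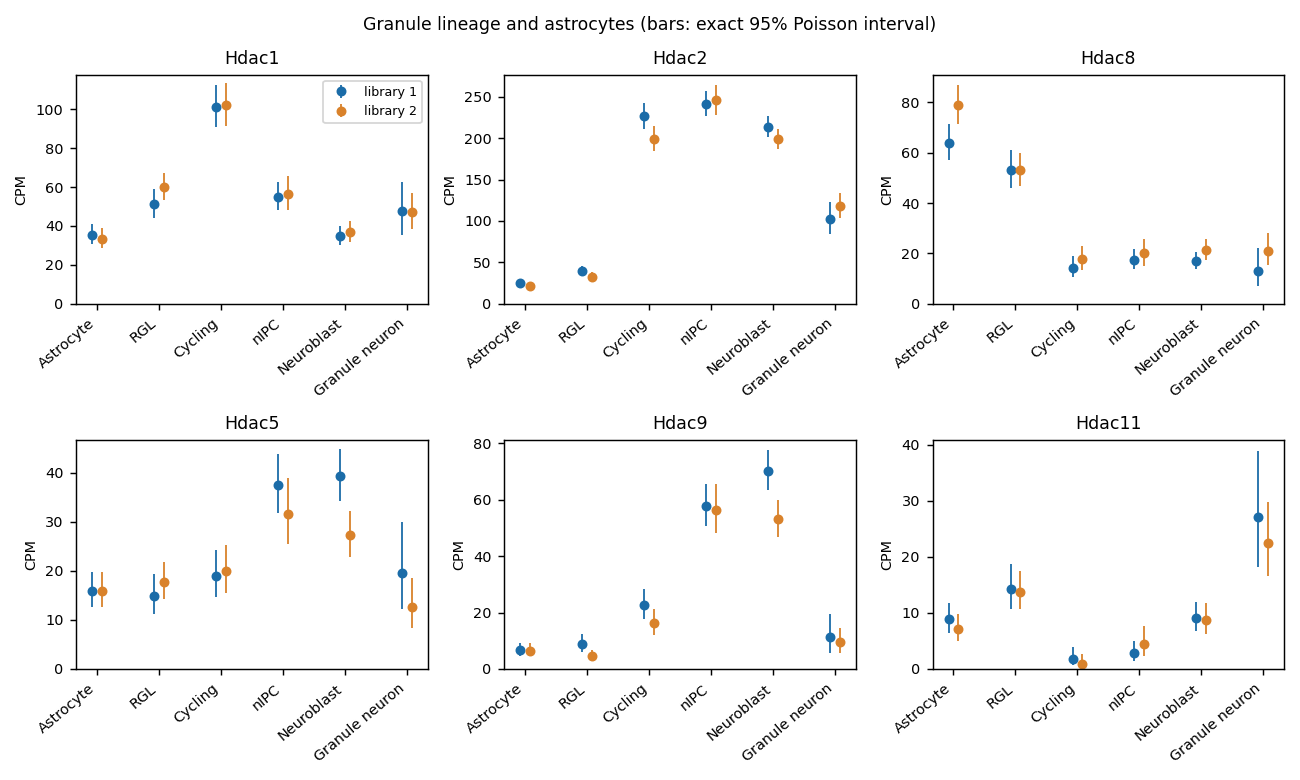
Levels of 6 members in astrocytes and along the granule lineage. The y axis is CPM from 0, points are the 2 libraries, and bars are exact 95% Poisson intervals. Hdac2 and Hdac9 are high in nIPC and neuroblasts and lower in RGL and granule neurons, Hdac1 peaks in cycling progenitors at 101 and 102 CPM, and Hdac8 is high in astrocytes and RGL.

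Stem cells and astrocytes, related glial cells, differed in 4 members, 2 higher and 2 lower in RGL, beside 15.1% and 17.2% of all genes. Hdac7 was lower in RGL, at -2.41 ± 0.22 on the log2 scale (edgeR adjusted p = 6.7e-11), and so was Hdac8, at -0.77 ± 0.13. Hdac3 was 0.58 ± 0.15 higher and Hdac1 0.37 ± 0.14 higher, the latter with an adjusted p of 0.045. Scaling by total counts took the median over all genes from -0.00 to 0.30 and passed 8 members, with Hdac2, Hdac4, Hdac6 and Hdac11 added as higher. The 2 members lower in RGL, Hdac7 and Hdac8, stayed lower under that scaling, at -2.08 and -0.43. The call of Hdac1 ended without the filter on low counts and without the library term. Median mitochondrial shares were 10.0 and 11.0% in astrocytes and 6.8 and 7.9% in RGL, and 13 of 20 dissociation-response genes were higher in RGL. The part of either in these differences was not tested.

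In the oligodendrocyte lineage 3 members were higher in oligodendrocytes than in OPC and 0 lower, beside 19.2% and 17.6% of all genes. Hdac11 was higher by 2.90 ± 0.28 (edgeR adjusted p = 1.1e-10) and Hdac5 by 1.62 ± 0.29 (adjusted p = 1.7e-05). These are the 2 members whose promoters are shown together above. The call of Hdac1, 0.76 ± 0.29 with an adjusted p of 0.040, was lost with DESeq2 and with only these 2 classes in the fit, and its sign turned under total-count scaling (-0.11). No member was lower at the threshold by edgeR, although Hdac8, at -0.88 ± 0.36, and Hdac6, at -0.99 ± 0.45, had unadjusted p-values of 0.020 and 0.036. DESeq2 called 4 members lower (Hdac2, Hdac4, Hdac6 and Hdac8), and scaling by total counts, under which the median over all genes went from 0.12 to -0.61, called 6 lower. Only 24 OPC came from library 1, with 195474 UMIs. Of the dissociation-response genes, 1 of 20 was higher and 5 were lower in oligodendrocytes, and their part was not tested.

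Microglia, the resident immune cells, differed from astrocytes in all 10 members, 5 higher and 5 lower, beside 37.1% and 33.5% of all genes. Hdac9 was higher by 1.35 ± 0.22, Hdac5 by 1.20 ± 0.15, Hdac11 by 0.80 ± 0.18, Hdac1 by 0.70 ± 0.13 and Hdac2 by 0.43 ± 0.15. The largest differences were negative, -4.36 ± 0.22 for Hdac7 and -3.21 ± 0.13 for Hdac8 (edgeR adjusted p = 3.8e-19 and 2.2e-21). Hdac4 was at -0.61 ± 0.14, Hdac3 at -0.47 ± 0.14 and Hdac6 at -0.44 ± 0.17. The calls of Hdac3 and Hdac6 ended when cells above 10% mitochondrial UMIs were left out, and that of Hdac2 with DESeq2 and with total-count scaling.

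Endothelial cells against the same astrocytes had 4 members higher and 5 lower, beside 32.7% of all genes in each direction. Hdac7 was higher by 1.36 ± 0.15 (edgeR adjusted p = 3.5e-10), Hdac5 by 1.03 ± 0.15, Hdac1 by 0.87 ± 0.13 and Hdac2 by 0.73 ± 0.15. The lower members were led by Hdac8, at -3.08 ± 0.14, and Hdac11, at -3.06 ± 0.31, with Hdac6 at -0.98 ± 0.19, Hdac9 at -0.78 ± 0.30 and Hdac3 at -0.59 ± 0.16. Hdac4 did not pass, at -0.13 ± 0.14. Under the 10% mitochondrial limit the calls of Hdac9 and Hdac3 ended. All 20 dissociation-response genes were higher in both microglia and endothelial cells than in astrocytes. Their summed level was 45240 and 36866 CPM in microglia and 20967 and 17481 CPM in endothelial cells, against 1051 and 788 CPM in astrocytes, and their part in the differences of the members was not tested.

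**Figure D4:**
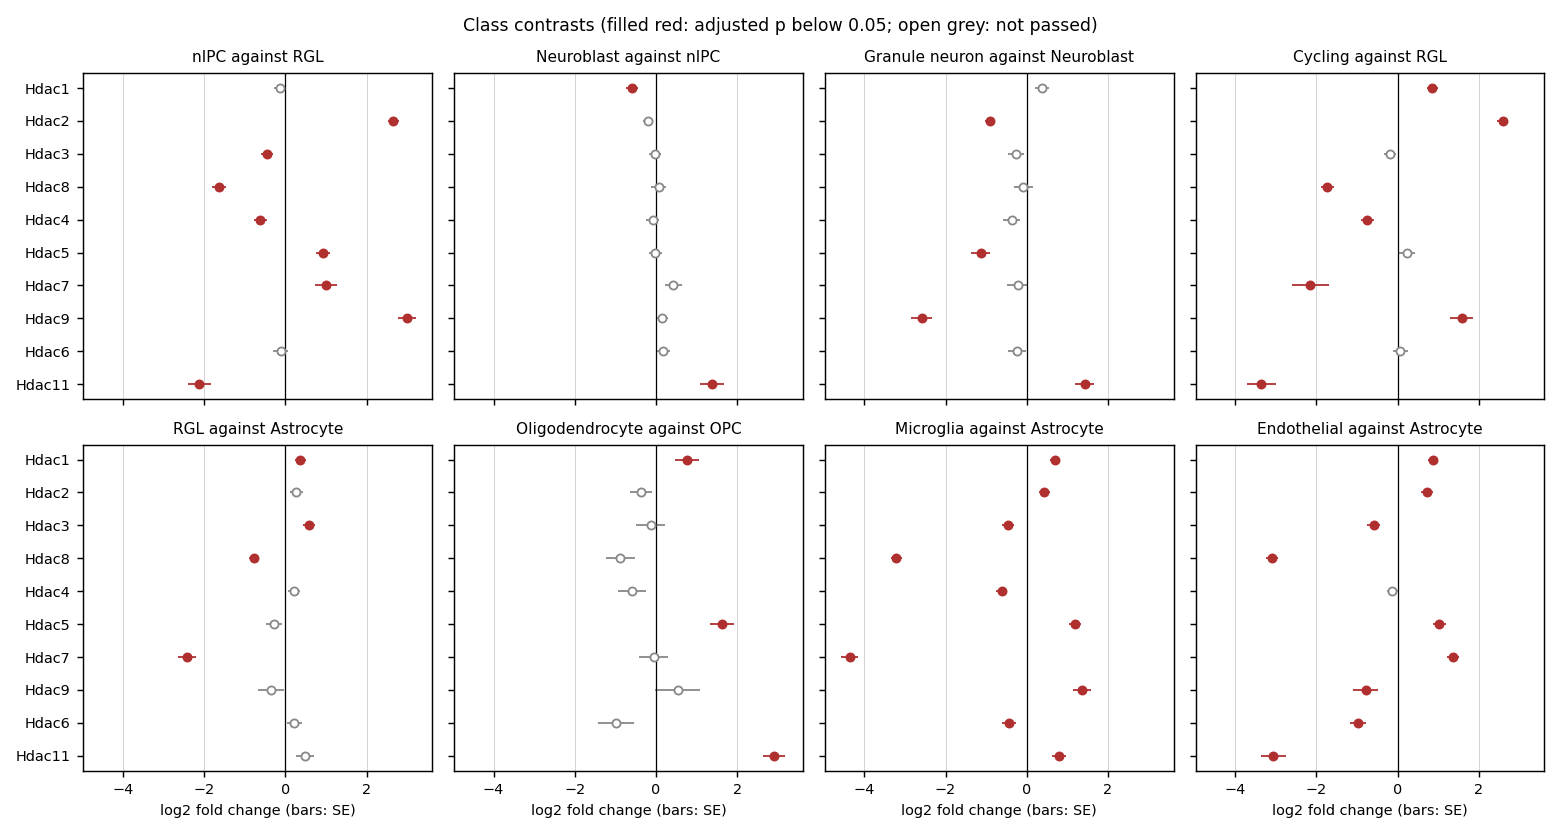
Log2 fold changes of the 10 members in 8 comparisons of cell classes. Each panel is 1 comparison, the x axis is the edgeR log2 fold change of the first class over the second, bars are 1 SE, filled red points passed an adjusted p of 0.05, and open grey points did not. Hdac2 and Hdac9 lie far to the right in nIPC against RGL (2.65 and 3.0), and Hdac7 and Hdac8 far to the left in microglia against astrocytes (-4.36 and -3.21).

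Over the 8 comparisons 47 of 80 member tests passed, 23 higher and 24 lower. All 47 had the same sign in each library taken alone, which follows largely from their selection on these same libraries.

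Subunits of the complexes that carry Hdac1 and Hdac2 were also measured. In nIPC against RGL, where 24.9% of all genes were higher and 27.6% lower, 7 of 11 NuRD genes were higher and 3 lower, with a median of 0.59, among them Chd3 (2.39 ± 0.16) and Mbd3 (0.80 ± 0.11). Of 12 Sin3 genes 6 were higher and 0 lower, of 8 CoREST genes 4 were higher and 1 lower, and of 5 NCoR and SMRT genes, the partners of Hdac3, 3 were higher and 1 lower. Rcor2, a CoREST scaffold, was higher by 6.43, and Kdm1a, its histone demethylase, by 1.96. In cycling progenitors against RGL (25.5% of all genes higher, 27.2% lower), 9 of 11 NuRD genes were higher and 1 lower, 8 of 12 Sin3 genes higher and 0 lower, 5 of 8 CoREST genes higher and 3 lower, and 3 of 5 NCoR and SMRT genes higher and 0 lower. From neuroblasts to granule neurons (22.8% of all genes higher, 25.7% lower) 4 of 8 CoREST genes were lower and 0 higher, among them Kdm1a (-1.42) and Rcor2 (-3.83), beside the fall of Hdac2.

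The partners of class IIa proteins were read against the same shares. All 3 MEF2 factors were higher in granule neurons than in neuroblasts (22.8% of all genes), with a median of 1.72 and Mef2c at 4.06, while 2 of 4 class IIa members fell there. The same 3 were higher than in astrocytes in microglia (median 4.14, 37.1% of all genes higher) and in endothelial cells (median 2.67, 32.7% higher). Of 6 measured 14-3-3 genes, 4 were higher and 0 lower in nIPC than in RGL, beside 24.9% and 27.6% of all genes. In granule neurons against neuroblasts 5 were higher and 1 lower, beside 22.8% and 25.7%, and in oligodendrocytes all 6 were higher than in OPC, beside 19.2%. Among 10 kinase genes that act on class IIa proteins, 2 were higher and 5 lower in nIPC than in RGL, with Camk2d at -4.77 and Sik1 at 2.66. Sik1 was also higher in endothelial cells than in astrocytes, by 6.74.

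Enzymes with the opposite or a parallel activity were counted as well. Of 10 histone acetyltransferases, 3 were higher and 2 lower in nIPC than in RGL, with Hat1 at -1.34 and Kat6b at 0.85, beside 24.9% and 27.6% of all genes. In microglia against astrocytes 8 were higher and 1 lower, beside 37.1% and 33.5%. Of 7 sirtuins, the NAD-dependent deacetylases, 2 were higher and 3 lower in nIPC than in RGL, beside 24.9% and 27.6% of all genes, with Sirt2 at -1.34, and Sirt2 was 1.73 higher in oligodendrocytes than in OPC.

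The genes whose pattern was most like that of a member were looked up for the 5 members whose highest class was at least 3 times their median class. Likeness was the Pearson correlation of log2(CPM + 10) over 36 columns (18 classes in 2 libraries) among 12944 genes, a description with no test, since the columns of 1 class share their cell type and those of 1 library their preparation. Hdac2 was closest to Kdm1a (0.91), Prmt1 (0.91) and Med27 (0.91), and Hdac8 to Agpat5 (0.92), AW047730 (0.91) and Caskin1 (0.90). Hdac11 was closest to Phlda3 (0.82), Kcna6 (0.78) and Ppp2r2c (0.76), Hdac7 to Sptbn1 (0.81), Agrn (0.78) and Fam171a1 (0.74), and Hdac9 to Marcksl1 (0.80), Bcl9 (0.78) and Sh3bp2 (0.78).

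Between the libraries the members moved about as often as other genes. Among 151 pairs of member and class with at least 20 UMIs, 22 (14.6%) differed by at least 1.5-fold in CPM, beside 17.1% of all gene and class pairs. Without choroid plexus, which had 29 cells in library 1 and 339 in library 2, it was 18 of 142 pairs (12.7%), beside 14.2%. With 1 library per genotype these folds have no replicate check.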

How the data were processed

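The values used are raw UMI counts from 1 matrix, which the authors deposited unfiltered for both samples together. Per the submitters' processing notes, Cell Ranger 4.0.0, Scanpy 1.7.0 and the mm10 build were used, with settings that the sources used here do not state. Per the labels' protocols, the libraries were 10x 3' v3.1 kits. Nor do they state whether counting used strand. The opposite-strand genes Gm14858, Slc48a1 and Gm14573 overlap Hdac8, Hdac7 and Hdac11, and whether their reads were kept apart was not tested. Reads of Hdac9 cannot be told apart from those of Gm47357 on its own strand where they overlap.

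Cells with at least 1000 UMIs, 500 genes and at most 20% mitochondrial UMIs were kept, and Scrublet (expected rate 0.06) removed 226 and 252 doublets (2.74 and 3.01%). Cells were clustered with scanpy 1.11.5 on 2981 variable genes (40 components, 15 neighbours, Leiden resolution 1), leaving out the 111 listed genes. Clusters were named from markers, with the scoring rule set after the clusters were seen. The 5 clusters without a name entered no class. Free RNA was taken from barcodes with under 100 UMIs. Counts summed per library and class (195474 to 24945523 UMIs) were tested with edgeR 4.0.16 (R 4.3.3; filterByExpr, TMM, quasi-likelihood, 2-sided, library as a covariate, adjusted p below 0.05). On data simulated for nIPC against RGL, with 12927 genes, 200 changed genes were recovered at 100% and 0.055% of unchanged genes were called. That simulation was easier than the data. Its spread was set below the biological coefficient of variation of the real fit, 0.123, and all classes shared 1 profile. Only genes of at least 20 CPM were changed, by 2-fold or more. Its rates therefore do not carry over to low counts or to smaller changes. Folds between the libraries were compared where a gene had at least 20 UMIs in both together. Promoter windows are RefSeq's, for mm10. DESeq2 1.42.0 and other settings were alternatives.

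All 10 members are named throughout. Of each other list, up to 2 genes per comparison may be named, those with the smallest adjusted p. The members and lists were chosen with earlier results of these data known, so that patterns in them are no independent support. The lists were the subunits of the NuRD, Sin3, CoREST and NCoR and SMRT complexes, MEF2 factors, 14-3-3 genes, class IIa kinases, histone acetyltransferases, sirtuins and dissociation-response genes.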

Additional observations from a re-analysis of the deposited data

Results flagged for a closer look

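Cells of clusters without a name entered no comparison, and the member with the highest level in each of the 5 is given here, for both libraries where both held cells. In a cluster with replication genes in the lead (226 cells, with Hells, Ccnd2 and Uhrf1 among its leading genes) Hdac2 stood at 155.9 and 152.9 CPM, between RGL and nIPC. In a shallow cluster that scored as microglia, Hdac1 stood at 47.26 and 39.91 CPM. A cluster with both endothelial and pericyte markers had Hdac7 at 77.38 and 105.6 CPM. A small cluster led by the antigen presentation genes H2-Eb1, H2-Aa and H2-Ab1 had Hdac1 at 103.6 and 54.7 CPM. The remaining cluster, with 0 cells of library 1 and 35 of library 2, had Hdac2 at 82.7 CPM from 11 UMIs.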

How the results depend on the processing

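The 8 comparisons were refitted with DESeq2, total-count scaling, no filter on low counts, no library term, a mitochondrial limit of 10%, only the 2 classes compared and, chosen after seeing the data, without choroid plexus. Of 80 member tests, 80 stayed on their side of the threshold without choroid plexus, 79 without the low-count filter, 78 without the library term (which pairs the classes within a library), 76 with the mitochondrial limit, 75 with 2 classes, 73 with DESeq2 and 67 with total-count scaling. Among tests that did not pass, the sign changed in 4 without the low-count filter, 4 with DESeq2, 3 with total-count scaling, 1 with the mitochondrial limit and 0 under the other settings. Counts of members passed moved by over 1.5 times in Neuroblast against nIPC with 2 classes (2 to 4), in RGL against astrocytes with total-count scaling (4 to 8), and in oligodendrocytes against OPC with DESeq2 (3 to 6) and total-count scaling (3 to 8). Under that scaling Hdac1 in oligodendrocytes against OPC turned from 0.76 to -0.11. Total-count scaling moved the share of calls that were higher from 46.9 to 74.8% in RGL against astrocytes and from 52.2 to 17.9% in oligodendrocytes against OPC; the cause was not tested. All 47 calls had the same sign in each library alone, a check chosen after seeing the data. The calls were selected on these same libraries, so this agreement is no separate support. The highest class changed for Hdac3 with the mitochondrial limit (choroid plexus) and for Hdac9 with the mean over cells (nIPC). It changed for no other member under these and 2 further settings (at least 2000 UMIs per cell, free RNA subtracted at 10%). All 4 settings kept CPM by total counts, and the TMM scaling of the fit was not tried on the order of classes. Against the mean of the others, the median over all genes was -0.40 by total counts and -0.05 by TMM in oligodendrocytes. In Cajal-Retzius cells it was 0.25 and -0.06, so the order of these 2 classes for Hdac11 can depend on the scaling. The median class I share was 64.8% and moved to 66.3% with the mean over cells. Cycling progenitors kept the highest and endothelial cells the lowest share under all 4. Depth limits OPC, COP, fibroblasts, pericytes, erythroid cells and border macrophages, where 19, 16, 19, 17, 19 and 14 of 20 member values rest on under 30 UMIs.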
